A study of Mus musculus with 4 samples.

Results

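The subject is mir-144 (Mir144), a microRNA gene of the red blood cell lineage, read through its arms and end variants in small RNA libraries from mouse fetal liver. Ago2 CD livers, which carry a catalytic dead form of Ago2, were set against wildtype livers, with 2 libraries per genotype that the series' design text calls biological replicates. The age, strain, mutated residue and number of animals per library are not given in the sources used here. Total RNA was extracted from frozen livers and cloned with a modified small RNA kit, so the values are those of a mixed tissue. In bulk tissue, fewer cells of a type and less RNA per cell cannot be told apart. The members were all reads that matched the Mir144 hairpin without mismatch, plus reads of which all but the last 1 to 3 nt matched it. They came to 1586 distinct read sequences, of which 173 matched whole, and to 13423487 of the 66093368 reads in the 4 libraries. None of the 173 whole sequences matched a second hairpin among the 2202 that were searched.

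A microRNA is cut from a folded transcript, first by Drosha at the base of the hairpin and then by Dicer near its loop, and 1 strand of the resulting duplex is kept by an Argonaute protein. Ago2 is the mouse Argonaute known for cleaving RNA. mir-144 and its neighbour mir-451a are made from the same transcript in erythroid cells under the control of GATA1. mir-144 follows the Dicer route, whereas the short hairpin of mir-451a is not cut by Dicer and is known to need cleavage by Ago2. The part of a microRNA that chooses its targets is the seed, bases 2 to 8 from the 5' end, so a read that starts at another base carries another seed.

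The hairpin is annotated on the plus strand at chr11:78073005-78073070 (GRCm38), is 66 nt long, lies in no other annotated gene, and stands upstream of Mir451a at chr11:78073170-78073241. It is printed from RefSeq (GRCm38.p6) with the most frequent 5p and 3p reads in capitals, because all positions below count from its first base.
Mir144 hairpin: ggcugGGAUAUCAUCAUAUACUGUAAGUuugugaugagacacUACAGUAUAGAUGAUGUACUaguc
RNAfold 2.7.2 gave it a stem of 27 base pairs and a folding energy of -28.6 kcal per mol. In that fold, a duplex of the reads 6 to 28 and 43 to 62 would have a 3' overhang of 3 nt at the loop end and of 1 nt at the base, and a 3p read that ended at 63 would have an overhang of 2 nt at the base.

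The RefSeq mature sequences, with the seed in capitals, are shown beside the microRNAs that share a seed or its core with them and beside the main shifted reads of the deposited files. The 5p arm had the seed GAUAUCA at its main start. No other mature mouse microRNA in the RefSeq table carried the seed of the 5p reads that started 2 nt earlier, at position 4, or 1 nt later, at position 7.
miR-144-5p (positions 6 to 28, chr11:78073010-78073032): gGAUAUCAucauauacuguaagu
5p read 2 nt earlier (4 to 25, chr11:78073008-78073029): tGGGATATcatcatatactgta
5p read 1 nt later (7 to 28, chr11:78073011-78073032): gATATCATcatatactgtaagt
The 3p arm shared bases 2 to 7 with miR-101a-3p at its main start. Reads that started 1 nt earlier, at position 42, had the complete seed of miR-101b-3p, UACAGUA.
miR-144-3p (43 to 62, chr11:78073047-78073066): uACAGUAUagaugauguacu
miR-101a-3p: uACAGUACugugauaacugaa
3p read 1 nt earlier (42 to 62, chr11:78073046-78073066): cTACAGTAtagatgatgtact
miR-101b-3p: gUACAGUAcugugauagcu
3p read 1 nt later (44 to 62, chr11:78073048-78073066): aCAGTATAgatgatgtact

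The libraries held 21875540 and 15238066 reads from Ago2 CD livers and 15841697 and 13138065 reads from wildtype livers (replicates 1 and 2 in each case, the order kept throughout). The longest deposited read was 46 nt in Ago2 CD replicate 1 and wildtype replicate 2, and 50 nt in Ago2 CD replicate 2 and wildtype replicate 1. Read length therefore joined libraries across genotypes, and values within the 50 nt pair and the 46 nt pair are given beside the pooled ones. The neighbour miR-451a fell by 9.20 on the log2 scale in the mutant (SE 0.74, edgeR quasi-likelihood adjusted p = 0.0264). miR-486-3p, known as the strand that Ago2 cleaves away from miR-486-5p, rose by 5.19 (SE 0.38, adjusted p = 0.0264). These were the arms past the threshold, 2 of 566 or 0.353%. Markers of the labelled tissue were present: the 11 tested arms of the erythroid markers miR-451a, miR-144, miR-486, miR-16 and miR-210 summed to 270053 and 354544 CPM in Ago2 CD livers and 1165937 and 611620 CPM in wildtype livers. The 6 hepatocyte arms (miR-122, miR-192 and miR-194) summed to 74826 and 35571 CPM in Ago2 CD livers and 26521 and 58699 CPM in wildtype livers. The hepatocyte sum was thus higher in the 46 nt library of each genotype. Of the erythroid sums, miR-451a held 1194 and 963 CPM in Ago2 CD livers and 851632 and 414494 CPM in wildtype livers. The subject itself, miR-144-3p, held 240161 and 325489 CPM in Ago2 CD livers and 280876 and 162924 CPM in wildtype livers. CPM are counts per 1000000 reads of a library size scaled by TMM, which sets the middle of the arms equal, so the arms of a library with 1 dominant member can sum to more than 1000000. Muscle microRNAs summed to 715 CPM in wildtype replicate 1 and to 13.2 to 34.6 CPM in the other 3 libraries. Neuronal microRNAs summed to 313 and 268 CPM in the 46 nt libraries and to 16.5 and 13.2 CPM in the 50 nt libraries. The part of these markers in the mir-144 results was not tested.

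The mir-144 share of all reads was higher in both Ago2 CD libraries than in either wildtype library, but the level of its arms relative to the other microRNAs did not pass the test. mir-144 reads made up 24.6% and 27.9% of the Ago2 CD libraries and 13.5% and 12.6% of the wildtype libraries. The genotypes did not overlap, and the exact permutation p was 0.333, the smallest that 2 libraries against 2 allow. By the same rule mir-451a had 49377 and 39145 reads in Ago2 CD livers and 6414351 and 3948047 in wildtype livers. With mir-451a taken out of the denominator, mir-144 held 32.1% and 41.2% of the reads on hairpins in Ago2 CD livers and 36.1% and 25.4% in wildtype livers, and the genotypes overlapped. For each mir-451a read there were 109 mir-144 reads in both Ago2 CD libraries, and 0.334 and 0.419 in the wildtype libraries.

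**Figure D1:**
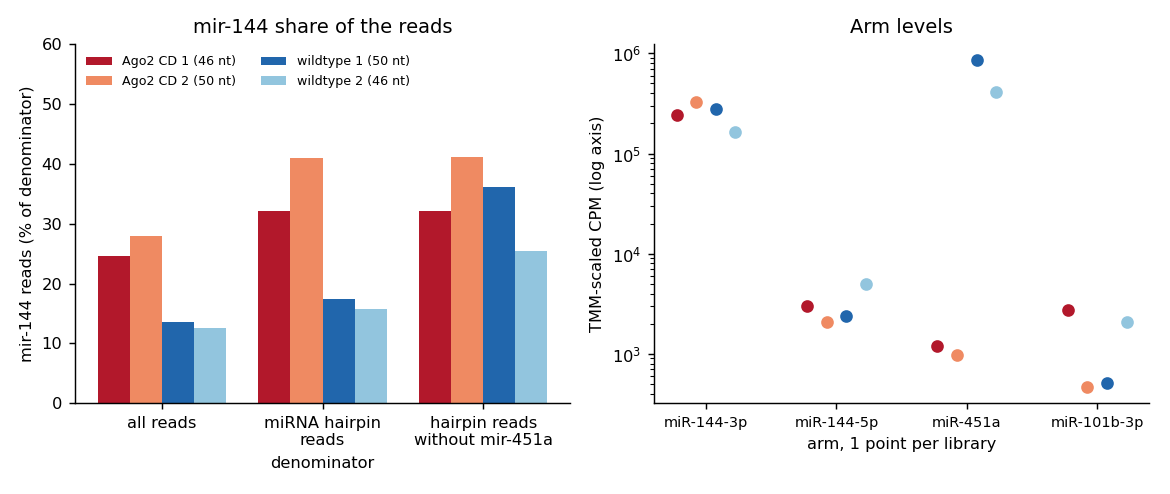
mir-144 reads as a percentage of 3 denominators (left, bars) and the TMM-scaled CPM of 4 arms on a log axis (right, points), with 1 bar or point per library, Ago2 CD left of wildtype and read length in parentheses. The share of all reads was 24.6% and 27.9% in Ago2 CD livers and 13.5% and 12.6% in wildtype livers, while the points of miR-144-3p overlap between the genotypes.

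miR-144-3p, the arm that Argonaute mostly keeps, was the highest arm in both Ago2 CD libraries and the second highest, behind miR-451a, in both wildtype libraries. It was counted in 4820833 and 3102604 reads of 18 to 27 nt from Ago2 CD livers and in 1656875 and 1446051 reads from wildtype livers. Scaled by TMM, this was 240161 and 325489 CPM in Ago2 CD livers and 280876 and 162924 CPM in wildtype livers. The highest and the lowest values belonged to Ago2 CD replicate 2 and wildtype replicate 2. The fitted log2 change was 0.35 (SE 0.47, edgeR adjusted p = 0.997), with 0.21 in the 50 nt pair and 0.56 in the 46 nt pair, against a median of 0.030 over all 566 arms. It was 0.040 with wildtype replicate 2 left out, 0.15 with Ago2 CD replicate 2 left out, 0.58 with Ago2 CD replicate 1 left out and 0.83 with wildtype replicate 1 left out. With reads on arms as library size, it was 1.15 (SE 0.37, edgeR adjusted p = 0.454), against a median of 0.74 over all arms in that scaling.

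miR-144-5p, the arm that is mostly discarded, had rank 41 and 52 among 566 arms in Ago2 CD livers and rank 49 and 24 in wildtype livers. It was counted in 59887 and 19822 reads from Ago2 CD livers and in 14119 and 44155 reads from wildtype livers. The scaled values were 2983 and 2080 CPM in Ago2 CD livers and 2394 and 4975 CPM in wildtype livers, so that wildtype replicate 2 stood above the other 3 libraries. The log2 change was -0.54 (SE 0.47, edgeR adjusted p = 0.997), and it was 0.12 without wildtype replicate 2. Within read lengths it was -0.20 in the 50 nt pair and -0.74 in the 46 nt pair.

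The 3p to 5p ratio was higher in the mutant of both pairs but did not pass the test. There were 80.5 and 157 3p reads per 5p read in Ago2 CD livers and 117 and 32.8 in wildtype livers. The log2 ratio of 3p to 5p reads differed by 0.86 (SE 0.81, limma adjusted p = 0.995), with 0.42 in the 50 nt pair and 1.30 in the 46 nt pair. The ratio of 2 of 278 hairpins passed (0.719%), the median change was 0.028, and the mir-144 value was -0.064 when wildtype replicate 2 was left out. Of the 278 hairpins, 103 were higher and 89 lower in the mutant of both pairs, and 27 had a larger change than mir-144. The 50 nt libraries held fewer 5p reads: 5p made up 0.635% of arm reads in Ago2 CD replicate 2 and 0.845% in wildtype replicate 1, but 1.23% in Ago2 CD replicate 1 and 2.96% in wildtype replicate 2.

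miR-144-5p started away from position 6 more often in the mutant of each pair, mainly at position 4, which gives the seed GGGAUAU. Reads from position 6 were 77.7% and 69.1% of the 5p reads in Ago2 CD livers and 78.1% and 86.8% in wildtype livers. Reads from position 4 were 14.9% and 24.4% in Ago2 CD livers and 17.02% and 7.81% in wildtype livers. The genotypes overlapped over all 4 libraries at position 4, but in the 50 nt pair the mutant stood at 24.4% against 17.02% in wildtype and in the 46 nt pair at 14.9% against 7.81%. The exact (Clopper-Pearson) 95% intervals of the 4 libraries, which cover counting error only, did not overlap each other.

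The fit over all arms did not call this difference. The log2 ratio of 5p reads at other starts to those at position 6 differed by 0.79 (SE 0.49, limma adjusted p = 0.997), with 0.68 in the 50 nt pair and 0.91 in the 46 nt pair. With read length in the model the SE was 0.16 and the limma adjusted p was 0.393, the 5th smallest p of 255 arms. No arm of 255 passed in either limma fit (0%), 2 and 26 had an unadjusted p under 0.05, and 6 arms had a larger change. The median change was 0.11, and 111 arms were higher and 45 lower in the mutant of both pairs. Leaving out 1 library gave 0.35 without wildtype replicate 2, 0.47 without Ago2 CD replicate 2, 1.12 without Ago2 CD replicate 1 and 1.23 without wildtype replicate 1.

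**Figure D2:**
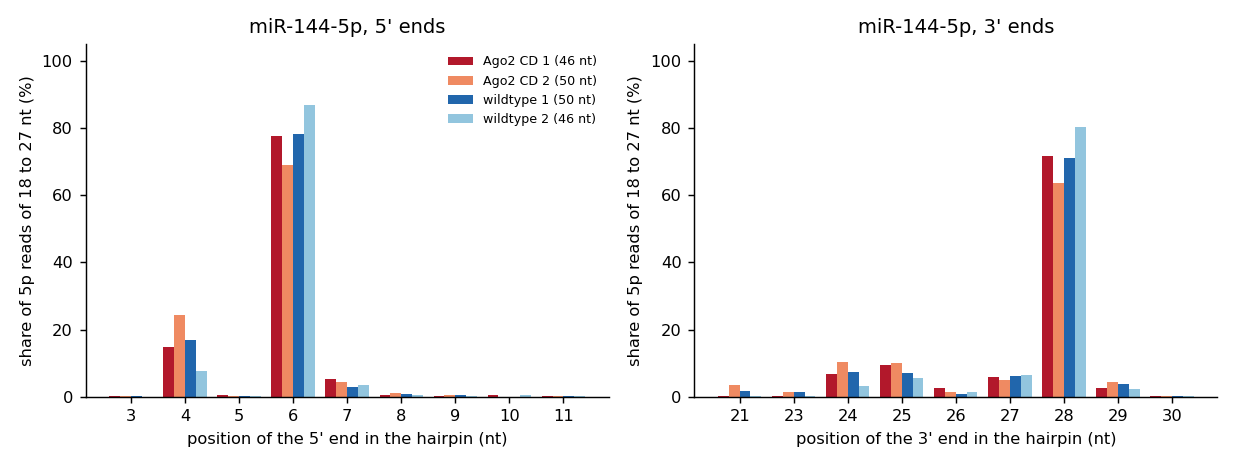
Shares of miR-144-5p reads of 18 to 27 nt by the hairpin position of their 5' end (left) and 3' end (right), in percent of the arm's reads, with 1 bar per library and Ago2 CD left of wildtype. Position 4 holds 14.9% and 24.4% of the reads in Ago2 CD livers and 17.02% and 7.81% in wildtype livers, and ends at 24 and 25 form a second group beside the main end at 28.

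The 5p reads that started early also ended early. Of the reads from position 4, 88.5% and 76.8% ended at position 24 or 25 in Ago2 CD livers and 77.7% and 86.0% in wildtype livers. Of the reads from position 6, 3.15% and 1.90% ended there in Ago2 CD livers and 1.20% and 1.87% in wildtype livers, while 85.8% and 85.7% in Ago2 CD livers and 86.7% and 87.9% in wildtype livers ended at position 28. Reads from position 4 had a mean length of 21.57 and 20.98 nt in Ago2 CD livers and 21.09 and 21.67 nt in wildtype livers, against 22.8 and 22.9 nt for those from position 6 in Ago2 CD livers and 22.9 nt in both wildtype libraries. The 2 kinds of 5p read thus differed by 2 nt at the 5' end and mostly by 3 or 4 nt at the 3' end in every library, in both genotypes.

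The leading read of each kind shows the sizes. The read 6 to 28 had 39939 and 11734 counts in Ago2 CD livers and 9556 and 33691 in wildtype livers. The read 4 to 25 had 4130 and 1760 counts in Ago2 CD livers and 891 and 1717 in wildtype livers, and 4 to 24, which lacks its last base, had 3782 and 1956 in Ago2 CD livers and 976 and 1249 in wildtype livers. A shorter form from position 4, the 18 nt read 4 to 21, differed by read length: it was 14.4% of the position 4 reads in Ago2 CD replicate 2 and 10.7% in wildtype replicate 1, but 2.08% in Ago2 CD replicate 1 and 1.91% in wildtype replicate 2.

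Starts 1 nt later were rarer. Position 7 held 5.36% and 4.37% of the 5p reads in Ago2 CD livers and 2.88% and 3.599% in wildtype livers, without overlap (exact permutation p = 0.333, the smallest possible). With so few libraries, 1 in 3 measures would separate in this way without any difference between genotypes. Reads from position 7 ended mostly at 28, with 69.4% and 60.97% in Ago2 CD livers and 58.1% and 72.3% in wildtype livers, so they kept the 3' end of the main form. The other 5p starts with at least 0.1% of the reads on average were positions 3, 5, 8, 9, 10 and 11, each at 1.10% or less in every library. At each of these the genotypes overlapped. Position 10 was read in the 46 nt libraries at 0.463% in Ago2 CD replicate 1 and 0.414% in wildtype replicate 2, and it had 0 reads in both 50 nt libraries.

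The 3p arm, which carries the seed ACAGUAU, started mostly at position 43 in every library. Reads from position 43 were 90.1% and 92.5% of 3p reads in Ago2 CD livers and 93.6% and 89.3% in wildtype livers. The log2 ratio of other starts to position 43 differed by 0.051 (SE 0.44, limma adjusted p = 0.997), with 0.24 in the 50 nt pair and -0.13 in the 46 nt pair. The sign turned negative when wildtype replicate 1 (-0.35) or Ago2 CD replicate 1 (-0.17) was left out.

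The shifted 3p reads were few in percent but many in number, since the arm is so abundant. Position 42, with the seed of miR-101b-3p, held 5.31% and 4.86% of 3p reads in Ago2 CD livers and 4.58% and 6.08% in wildtype livers. Position 44, whose bases 2 to 7 are those of miR-16-1-3p, held 3.10% and 1.44% in Ago2 CD livers and 1.06% and 3.13% in wildtype livers. Position 45 held 1.31% and 1.12% in Ago2 CD livers and 0.735% and 1.33% in wildtype livers. All 3 overlapped between the genotypes, and position 44 was more frequent in the 46 nt library of each genotype.

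Among reads of 16 nt and more, position 46 was the 3p start that matches a 5p end at 25 in the fold, with an overhang of 3 nt as for the main reads. It held 0.849% and 0.873% of 3p reads in Ago2 CD livers and 0.553% and 0.719% in wildtype livers, without overlap (exact permutation p = 0.333, the smallest possible). Most of these reads were too short for the arm counts. The next start, position 47, held 0.483% and 0.364% in Ago2 CD livers and 0.247% and 0.400% in wildtype livers. There the genotypes overlapped (exact permutation p = 0.667).

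More reads with the miR-101b-3p seed came from mir-144 than from mir-101b in every library. There were 255782 and 150641 reads of 18 to 27 nt from position 42 in Ago2 CD livers and 75924 and 87956 in wildtype livers. The whole miR-101b-3p arm had 55344 and 4454 reads in Ago2 CD livers and 2985 and 18280 in wildtype livers. Scaled, it had 2757 and 467 CPM in Ago2 CD livers and 506 and 2060 CPM in wildtype livers, with a log2 change of 0.33 (SE 1.05, edgeR adjusted p = 0.997), and it was higher in the 46 nt libraries of both genotypes. miR-101a-3p, merged with miR-101c, had 293 and 67.7 CPM in Ago2 CD livers and 81.0 and 279 CPM in wildtype livers, with a log2 change of 0.00060 (SE 0.92, edgeR adjusted p = 1.00).

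The 3' ends of miR-144-3p at positions 61 and 62 differed between read lengths, and the end at 63 between the genotypes of each pair. Position 62, the RefSeq end, held 87.3% and 77.9% of 3p reads in Ago2 CD livers and 77.7% and 85.2% in wildtype livers. Position 61 held 6.34% and 18.4% in Ago2 CD livers and 16.4% and 6.18% in wildtype livers, so the 50 nt library was the higher one in each genotype. Position 63, the end with a 2 nt overhang in the fold, held 5.68% and 3.58% in Ago2 CD livers and 5.86% and 7.78% in wildtype livers. This share was lower in the mutant of each pair and did not overlap between genotypes (exact permutation p = 0.333, the smallest possible). The shares of the ends at 59, 60, 61 and 62 did overlap. Base 63 of the hairpin is an adenine, so this end cannot be told apart from an adenine added after position 62.

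**Figure D3:**
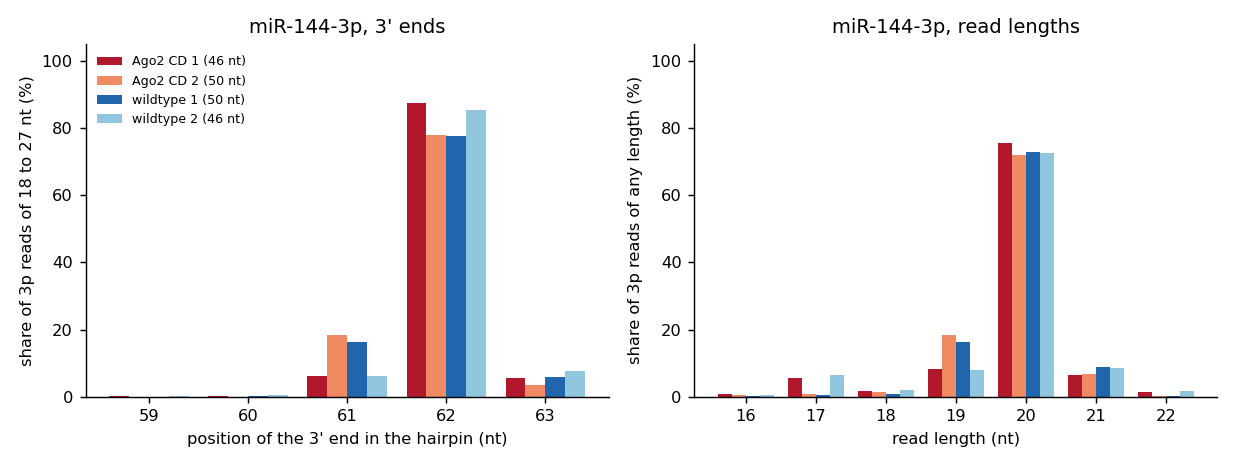
Shares of miR-144-3p reads by the hairpin position of their 3' end (left, percent of reads of 18 to 27 nt) and by length (right, percent of all whole-matching reads), with 1 bar per library and Ago2 CD left of wildtype. Ends at 61 and reads of 17 nt separate the 50 nt libraries from the 46 nt libraries, not the genotypes.

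Reads from position 43 that were shorter than the usual 20 nt were 6.85% and 18.8% in Ago2 CD livers and 16.6% and 6.83% in wildtype livers. Their log2 ratio to the other reads from that start differed by 0.11 (SE 0.87, limma adjusted p = 1.00), with 0.21 in the 50 nt pair and 0.0044 in the 46 nt pair. It was -0.61 with wildtype replicate 2 left out and -0.72 with Ago2 CD replicate 2 left out. For miR-144-5p, reads from position 6 shorter than 23 nt were 12.1% and 9.98% in Ago2 CD livers and 9.51% and 9.94% in wildtype livers, a log2 difference of 0.20 (SE 0.34, limma adjusted p = 1.00), which was 0.042 without Ago2 CD replicate 1. No arm of 255 passed (0%), 5 had an unadjusted limma p under 0.05, and the median change was -0.074.

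Mean lengths differed little. miR-144-3p reads averaged 19.977 and 19.862 nt in Ago2 CD livers and 19.914 and 20.004 nt in wildtype livers. miR-144-5p reads averaged 22.5 and 22.3 nt in Ago2 CD livers and 22.5 and 22.7 nt in wildtype livers (exact permutation p = 0.667 for both arms). A 17 nt form that lacks the last 3 bases of miR-144-3p, 43 to 59, was 4.60% of whole 3p reads in Ago2 CD replicate 1 and 5.77% in wildtype replicate 2. It was 0.0234% in Ago2 CD replicate 2 and 0.0227% in wildtype replicate 1, so this form was abundant in the 46 nt libraries of both genotypes.

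Tails, bases at the 3' end that the hairpin does not encode, were dominated by a single cytosine in the 50 nt libraries. Reads with any tail were 3.28% and 25.5% of miR-144-3p reads in Ago2 CD livers and 21.3% and 3.25% in wildtype livers. A single cytosine made up 0.0867% and 23.8% in Ago2 CD livers and 19.2% and 0.0714% in wildtype livers, and it followed position 61 in most cases (986349 of 992709 reads in Ago2 CD replicate 2 and 402222 of 405276 in wildtype replicate 1). miR-144-5p had the same pattern, with 0.128% and 21.9% in Ago2 CD livers and 18.4% and 0.0846% in wildtype livers, and there it followed position 27 in 4440 of 5672 reads in Ago2 CD replicate 2 and 2771 of 3256 in wildtype replicate 1. In both arms these reads had the length of the main form, with a cytosine where the hairpin has its last base, a uracil.

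**Figure D4:**
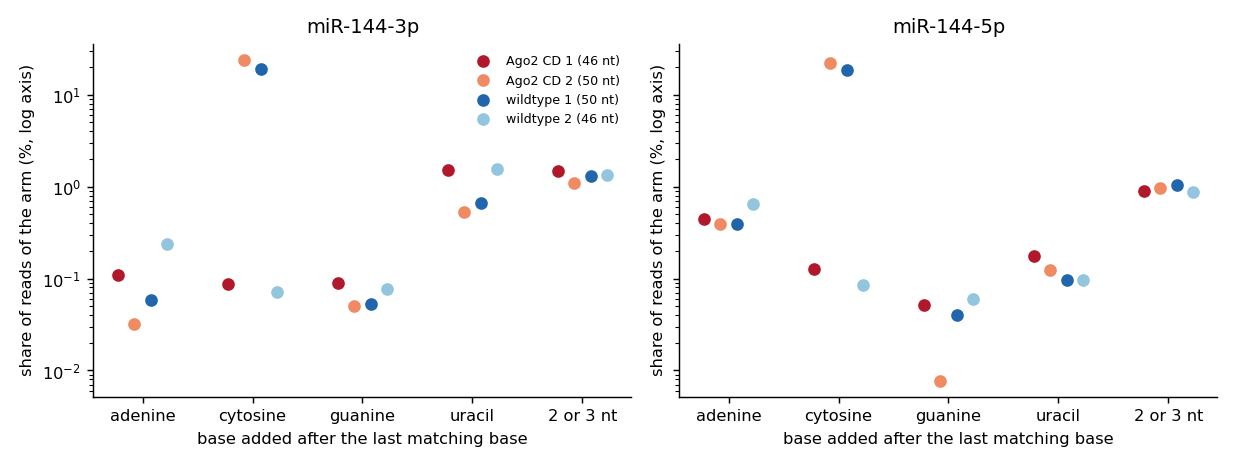
Reads with bases added after the last matching base, in percent of all reads of the arm and on a log axis, for miR-144-3p (left) and miR-144-5p (right), with 1 point per library and Ago2 CD left of wildtype. A single cytosine stands at 18.4% to 23.8% in the 50 nt libraries and at 0.0714% to 0.128% in the 46 nt libraries, and the 2 genotypes lie together within each read length.

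Single uracils, the tail that terminal uridylyltransferases add, were the most frequent 1 nt tail counted for miR-144-3p in the 46 nt libraries. Single uracils made up 1.52% and 0.532% in Ago2 CD livers and 0.663% and 1.54% in wildtype livers, and these ranges overlapped. An adenine after the main end at 62 matches hairpin base 63, and a uracil after 61 matches base 62. Such reads counted as whole, so the shares of adenine and uracil tails leave them out. Single adenines were 0.109% and 0.0324% in Ago2 CD livers and 0.0587% and 0.237% in wildtype livers, lower in the mutant of each pair. On the reads that matched through position 63, a single uracil stood on 16.5% and 7.04% in Ago2 CD livers and 5.02% and 12.8% in wildtype livers, higher in the mutant of each pair. On miR-144-5p, single uracils were 0.176% and 0.124% in Ago2 CD livers and 0.0963% and 0.0957% in wildtype livers, without overlap (exact permutation p = 0.333, the smallest possible), and rested on 107 and 32 reads in Ago2 CD livers and on 17 and 43 in wildtype livers. A uracil after the 5p ends at 27 and 28 matches the hairpin and was not counted as a tail. These uracils therefore stood on other ends of the arm, not on its main form.

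The tailed share did not pass in either arm. The log2 ratio of tailed to whole reads differed by 0.18 for miR-144-3p (SE 1.61) and by 0.12 for miR-144-5p (SE 1.99), both with a limma adjusted p of 1.00. Within read lengths the 3p values were 0.34 and 0.015 and the 5p values 0.29 and -0.042 (50 nt and 46 nt pair). Tails of 1 nt other than cytosine gave -0.18 for miR-144-3p and -0.099 for miR-144-5p. Both arms were negative when wildtype replicate 2 was left out (3p -1.33, 5p -1.78) and when Ago2 CD replicate 2 was (3p -1.49, 5p -1.95). No arm of 255 passed (0%), none had an unadjusted limma p under 0.05, and the median change was 0.031.

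Loop reads of mir-144 were close to absent. Reads with at least 5 of the 14 bases between the arms (positions 29 to 42) numbered 28 and 6 in Ago2 CD livers and 7 and 4 in wildtype livers, of 5200878 and 3166122 whole reads in Ago2 CD livers and 1685977 and 1602570 in wildtype livers. Their log2 ratio to the other reads differed by -0.075 (SE 0.79, limma adjusted p = 0.952), with -1.12 in the 50 nt pair and 0.96 in the 46 nt pair. It was positive without wildtype replicate 1 (0.26), without Ago2 CD replicate 2 (0.63) and when 3 bases sufficed (0.11). No hairpin of 180 passed (0%), and 6 had an unadjusted limma p under 0.05. Of the 180, 89 had no loop read in any library, so that the pseudocount and the depth set their ratio. The median change was -0.84 over all 180 and -0.21 over the 30 with at least 10 loop reads. Such scarcity was usual: over all libraries the loop share was 0.000386% for mir-144, against a median of 0.000317% over hairpins. Of the 180, 90 had a smaller share than mir-144.

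The most frequent loop reads included 5p reads that ran on past position 28, a 3p read that began early, and reads that crossed the loop and ended inside the 3p arm. The most frequent, 6 to 33, had 5 and 0 counts in Ago2 CD livers and 0 in both wildtype libraries. Reads that started at 28 to 30 and ended on the 3p arm numbered 10 and 1 in Ago2 CD livers and 1 in each wildtype library. Among them, 28 to 50 had 3 and 0 counts in Ago2 CD livers and 1 in each wildtype library. The read 38 to 62, an early 3p start, had 0 and 1 in Ago2 CD livers and 1 and 2 in wildtype livers. No read of 38 nt or longer matched mir-144 in any library. The most that a count of 0 allows, at 3 counts, was 5.59e-05% and 7.05e-05% of mir-144 reads in Ago2 CD livers and 0.000140% and 0.000181% in wildtype livers, so a precursor of 66 nt, longer than these reads, lay outside what could be read.

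At the level of single reads, no mir-144 form passed until read length entered the model. Of 4280 whole reads tested, 65 belonged to mir-144, 33 of the 5p and 32 of the 3p arm. edgeR called none of the 4280 (0%), and none of the 65 had an unadjusted p under 0.05. This fit also called no read of mir-451a, whose arm passed, so it cannot show that the mir-144 forms were unchanged. DESeq2 called 107 of the 4280 and none of mir-144, and 2 of the 107 were reads of neither mir-451a nor mir-486. With read length in the edgeR model, 322 passed (7.52%), of which 192 were reads of neither mir-451a nor mir-486. Of the 65 mir-144 reads, 3 were among the 322, a share below 7.52%, which the reads of mir-451a and mir-486 raise. At the arm level that model called 4 of 566 arms (0.707%), with neither arm of mir-144 among them.

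The 3 reads are named after their values were seen. The read 41 to 62 starts 2 nt early on the 3p arm and carries the seed of miR-139-5p, CUACAGU. It had 3354 and 479 counts in Ago2 CD livers and 109 and 1064 in wildtype livers, and its log2 change in that model was 0.93 (SE 0.25, edgeR adjusted p = 0.00469). The read 6 to 27, the 5p form without its last base, had 3210 and 878 counts in Ago2 CD livers and 807 and 2692 in wildtype livers, with a log2 change of -0.76 (SE 0.25, edgeR adjusted p = 0.0345). The 18 nt read 11 to 28 had 59 and 35 counts in Ago2 CD livers and 35 and 62 in wildtype livers, with a log2 change of -1.01 (SE 0.33, edgeR adjusted p = 0.0339). All 4 tested reads from position 41 had a positive change in that model, the other 3 with edgeR adjusted p of 0.0739 to 0.801.

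**Figure D5:**
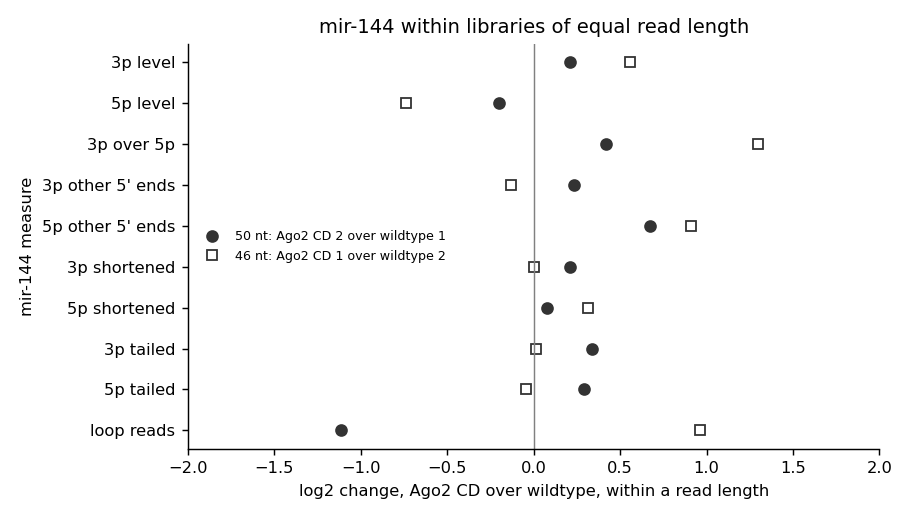
Log2 change of Ago2 CD over wildtype within each read length for the mir-144 measures, with a filled circle for the 50 nt pair and an open square for the 46 nt pair. The share of other 5p starts (0.68 and 0.91) and the 3p to 5p ratio (0.42 and 1.30) lie above 0 in both pairs. So do the 3p level (0.21 and 0.56), shortened 3p reads (0.21 and 0.0044), shortened 5p reads (0.078 and 0.32) and tailed 3p reads (0.34 and 0.015). The 5p level (-0.20 and -0.74) lies below 0 in both.

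Of 12 arms in a second list for the erythroid lineage, which shares members with the markers above, 10 were not past the threshold, and the others were miR-486-3p, higher, and miR-451a, lower. The median change of the list was 0.026, against 0.030 over all arms. miR-16-5p, an abundant microRNA of red cells, had 23031 and 22337 CPM in Ago2 CD livers and 28544 and 27219 CPM in wildtype livers (log2 change -0.30, SE 0.30, edgeR adjusted p = 0.997). miR-486-5p, the kept strand of mir-486, had 540 and 641 CPM in Ago2 CD livers and 2204 and 1662 CPM in wildtype livers (log2 change -1.71, SE 0.31, edgeR adjusted p = 0.487). The 3 arms of at least 1000 CPM whose levels over the 4 libraries were most like those of miR-144-3p, of 74 compared, were miR-26b-5p, let-7i-5p and miR-26a-5p. Their summed squared differences of centred log2 CPM were 0.047, 0.078 and 0.085. Chosen for that likeness, all 3 were highest in the 50 nt libraries, as miR-144-3p was, and their log2 changes were 0.14, 0.21 and 0.090.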

How the data were processed

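Small RNA was sequenced in 2 libraries from Ago2 CD and 2 from wildtype fetal liver. The deposited files hold counts of each distinct read, with no normalization by the authors. The submitters' processing notes name cutadapt without a version, and trimming settings, aligner and build are not given in the sources used here. Reads were matched without mismatch to GENCODE vM21 hairpins (GRCm38). Reads of 18 to 27 nt counted for the arm in which their middle base lay, the hairpin being split at its centre. Tailed reads matched after removal of 1 to 3 nt, by the longest part that matched. Reads with an undetermined base (0.183% to 0.256%) were left out.

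Arm and single-read counts were tested in R 4.3.3 with edgeR 4.0.16 (quasi-likelihood, TMM, filterByExpr), and log2 ratios with limma 3.58.1 at a pseudocount of 0.5, Ago2 CD against wildtype, two-sided, with Benjamini-Hochberg adjustment over all features and a threshold of 0.05. Ratios needed at least 20 reads per library for arms and 200 for ends, tails and loops. DESeq2 1.42.0 and voom were alternatives. Exact permutation tests had 2 libraries against 2. The scripts were tested on simulated data.

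The members, lists and tests were chosen with earlier results of these data known. Named were both arms, 5' ends with at least 0.1% of an arm, up to 10 reads per arm, tails by base, up to 5 loop reads, arms that share the seed core, the 3 most alike arms and an erythroid list. The p-values measure the spread between these libraries. Same-numbered libraries deviated in opposite directions (correlation -0.724 over 566 arms).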

Additional observations from a re-analysis of the deposited data

How the results depend on the processing

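Of 127 alternative values for 12 results, 102 were labelled as unchanged. A level or ratio so labelled kept its direction and side of the threshold, and a count of called features stayed equal or near to the main count. The count of called arms, 2, was 1 with mir-451a and mir-486 out of the library size, 8 with DESeq2, 12 with no filter, 4 with read length in the model and 0 to 1 without 1 library. The crossed pairing of replicate numbers, chosen after seeing the data, is the pairing by read length and gave those same 4 arms and 3 mir-144 reads. The replicate block gave 3 arms and 0 mir-144 reads and called 1 hairpin for its arm ratio in place of 2. It changed no call of a mir-144 result. With reads on arms as library size, miR-144-3p's level was 1.15 and miR-144-5p's 0.094, where the median of all arms was 0.74. Without 1 library, log2 changes ranged from 0.040 to 0.83 for the 3p level, from -0.93 to 0.12 for the 5p level, from -0.064 to 1.78 for the arm ratio, from -0.35 to 0.46 for 3p starts, from -0.72 to 0.93 for shortened 3p reads, from -1.49 to 1.85 for 3p tails, from -1.95 to 2.20 for 5p tails and from -0.78 to 0.63 for loop reads. Tails of 1 nt other than cytosine gave -0.18 (3p) and -0.099 (5p), and 3 bases of loop gave 0.11. The cause was not tested. Alternatives chosen after seeing the data also added reads of 16 and 17 nt (5p starts 0.75, 3p starts 0.11) and left out tails that end on the hairpin's base (3p 0.10, 5p 0.065). Loop reads, at 4 to 28 per library, are limited by depth. Tails past the last hairpin base were not checked against a genome.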
